A study of Mus musculus with 2 samples.

Results

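Bile-duct spots were picked out in both liver sections of a spatial transcriptomics (ST) experiment and compared with spots of the same section that held no transcript of the duct markers. In 10x Visium ST a tissue section lies on a slide of barcoded capture spots, captured RNA molecules are counted by the random tags (UMIs) they carry, and a spot covers several cells. Within each section, spots over tissue with at least 3000 UMIs were ranked by the share of their UMIs that belonged to Epcam, Krt19 and Krt7, and a spot of the top 3% with at least 1 UMI of Krt19 or Krt7 was called a duct spot. This gave 28 duct spots among 2107 such spots of the NCD section (1.33%) and 76 among 3538 of the HFD section (2.15%), or 104 of the 7286 spots over tissue in the series. The 2033 NCD and 3143 HFD spots with 0 UMIs of the 3 genes are the comparison spots.

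The sections came from male C57BL/6J mice bought at 5 weeks of age, 1 mouse per diet, fed a normal chow diet (NCD) or a high-fat diet (HFD) for 14 weeks and then for 8 weeks with daily oral distilled water. They were 10 µm frozen sections taken after hepatic perfusion. The labels name an immune cell type for these liver sections, but Alb, the serum albumin gene of hepatocytes, made up 55753 CPM (UMIs of a gene scaled to a total of 1000000) in the NCD and 56245 CPM in the HFD comparison spots. No test between diets was possible with 1 section each: diet, animal, section and slide cannot be told apart, and spots are not replicates of a condition. All 95% intervals cover counting error only, neither animals nor the spread between spots, and were not adjusted for the number of genes. Duct spots were deeper than comparison spots, with median UMIs of 12018 against 9582 in the NCD section and 21222.5 against 18035 in the HFD section. The sections shared 3173 spot barcodes over tissue, which name slide positions, and 0 of these were among the duct spots of both sections.

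Bile ducts carry bile out of the liver and are lined by cholangiocytes, an epithelium that is held together by keratins and tight junctions and that adds water, bicarbonate and mucins to the bile. Small ducts run in the portal tracts beside a branch of the portal vein and of the hepatic artery, wrapped in portal fibroblasts and their collagen. Cholangiocyte identity depends on Sox9 and on the Notch and Hippo pathways, and liver injury can expand duct-like cells in what is called a ductular reaction.

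The genes higher in the duct spots of both sections can be read beside the DNA in front of them. The bases directly before the transcription start are given for 4 of these genes, Fxyd3 (regulator of the sodium pump), Cldn7 (tight junction claudin), Pdzk1ip1 (small membrane protein of epithelia) and Spp1 (osteopontin, a secreted glycoprotein of cholangiocytes), because they had high duct ratios in both sections and an entry in the RefSeq promoter table of GRCm38.p6. Bases inside an exon of GENCODE M21 were left off. Capitals mark the letters searched on both strands, which were GGAATG for TEAD factors, AACCGGTT for Grainyhead-like factors and TGACTCA for AP-1.
Fxyd3, minus strand, chr7:31076705-31076947: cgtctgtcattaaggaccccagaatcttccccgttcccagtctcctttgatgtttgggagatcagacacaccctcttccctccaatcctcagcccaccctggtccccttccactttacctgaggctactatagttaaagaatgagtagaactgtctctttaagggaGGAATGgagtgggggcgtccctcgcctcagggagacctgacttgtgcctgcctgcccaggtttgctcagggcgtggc
Cldn7, plus strand, chr11:69964529-69964778: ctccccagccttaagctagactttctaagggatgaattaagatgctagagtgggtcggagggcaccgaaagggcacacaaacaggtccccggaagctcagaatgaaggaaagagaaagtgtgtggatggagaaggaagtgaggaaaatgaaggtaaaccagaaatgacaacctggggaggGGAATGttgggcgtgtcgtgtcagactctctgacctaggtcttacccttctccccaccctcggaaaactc
Pdzk1ip1, plus strand, chr4:115088458-115088707: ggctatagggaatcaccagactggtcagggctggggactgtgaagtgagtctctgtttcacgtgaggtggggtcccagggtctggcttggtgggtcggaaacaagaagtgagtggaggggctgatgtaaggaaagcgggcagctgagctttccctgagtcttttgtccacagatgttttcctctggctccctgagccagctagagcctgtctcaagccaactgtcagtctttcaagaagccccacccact
Spp1, plus strand, chr5:104434861-104435110: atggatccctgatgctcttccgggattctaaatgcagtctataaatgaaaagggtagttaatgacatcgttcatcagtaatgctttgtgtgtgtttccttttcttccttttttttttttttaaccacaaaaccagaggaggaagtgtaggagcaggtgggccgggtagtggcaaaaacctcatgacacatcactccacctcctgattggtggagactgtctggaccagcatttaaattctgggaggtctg
Fxyd3 and Cldn7 each held 1 GGAATG, 84 and 70 bases before the start, and Pdzk1ip1 and Spp1 held 0 of the 3 motifs in this window. Among the 122 of 181 genes called higher in both sections that had an entry, 20.5% held GGAATG in the 250 bases before the start, compared with 12.6% of all 27025 genes in the table and 10.5% of the 9353 listed genes measured in both sections. TGACTCA stood in 4.92% of the 122 genes, 4.43% of all genes and 3.12% of the measured genes. AACCGGTT stood in 1 of the 122 genes (0.820%), 0.122% of all genes and 0.214% of the measured genes. A match describes letters, not a bound site. Sox9, Cd24a and Krt19 had no entry.

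The members were chosen by the UMIs of Epcam, Krt19 and Krt7, so these values describe the choice and support nothing. Epcam (cell adhesion molecule of epithelia, chr17:87635979-87651129) had 17 UMIs in the NCD and 103 in the HFD duct spots, Krt19 (chr11:100140810-100148665) had 24 and 92, and Krt7 (chr15:101411043-101430313), the other keratin of duct epithelium, had 14 and 44. Gene positions follow the GENCODE M21 annotation (GRCm38). Counts per spot were low: 16 of 28 NCD and 20 of 76 HFD duct spots held a single UMI of the 3 genes, 4 and 43 held 3 or more, and 2 and 13 held all 3 genes. The highest count was 13 UMIs in 1 NCD spot (7 Epcam, 4 Krt19 and 2 Krt7), and the highest HFD spot held 9. The last spot inside the top 3% had 36.2 CPM of the 3 genes in the NCD and 76.4 CPM in the HFD section, and the first spot outside had 34.2 and 76.1 CPM. In the NCD section the duct spots held 92.3% of the Krt19 UMIs of all spots with at least 3000 UMIs, and in the HFD section 47.7%. Marker UMIs were also present in 11 NCD and 289 HFD spots that ranked below the top 3%. A further 35 NCD and 30 HFD spots ranked in the top 3% with Epcam alone and were in neither group.

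Other genes of duct epithelium, none of them used to choose the spots, were higher in the duct spots of both sections. A list of 47 further duct markers reached 2221 CPM in the NCD duct spots against 810 CPM in comparison spots, a log2 ratio of 1.46 (95% interval 1.36 to 1.55). The HFD values were 3309 against 1530 CPM, or 1.11 on the log2 scale (1.07 to 1.15). As a spot pools the RNA of its cells, fewer cells of a type and less RNA per cell cannot be told apart. A gene was counted as measured with at least 20 UMIs over duct and comparison spots, and called higher or lower when its CPM differed by at least 2 times with the interval clear of 1. Of the 47 genes 30 were measured in the NCD section, 17 were called higher and 0 lower, while 4.41% of all 11893 measured genes were called higher. In the HFD section 40 were measured, 24 were called higher and 0 lower, against 7.2% of 13509 genes. The median log2 ratio of the measured members was 1.38 in the NCD and 1.80 in the HFD section, beside 0.23 and 0.12 over all measured genes. Called higher in both sections were 14 members, 3 were called in the NCD section alone (Dsg2, Wfdc2 and Atp1b1), and of 10 called in the HFD section alone 9 had fewer than 20 UMIs in the NCD section. Spp1 supplied 31.5% of the list's duct UMIs in the NCD and 29.0% in the HFD section, and without it the log2 ratios were 0.96 and 0.75.

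**Figure D1:**
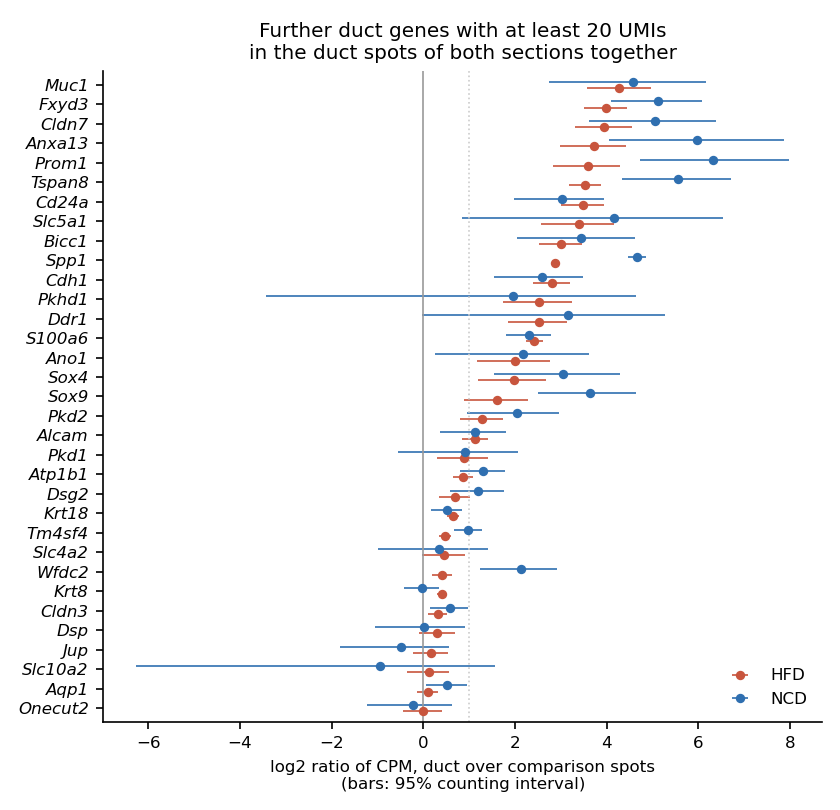
Log2 ratio of CPM in duct over comparison spots (x axis) for 33 further duct genes with at least 20 UMIs in the duct spots of both sections together and at least 1 in each, ordered by the HFD value, with 95% counting intervals as bars. Muc1, Fxyd3, Cldn7, Anxa13, Prom1 and Tspan8 are among the genes that lie above 3 in both sections. Intervals that hold 0 include those of Krt8, Dsp and Onecut2 in the NCD section and of Dsp, Aqp1 and Onecut2 in the HFD section.

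Of the duct gene groups, surface and secreted products had the highest log2 ratio, 2.70 (2.57 to 2.83) in the NCD and 1.80 (1.74 to 1.85) in the HFD section. Spp1 (chr5:104435118-104441050) had 700 CPM in the NCD duct spots and 27.8 CPM in the comparison spots, 25.2 times as much (log2 ratio 4.66, 4.45 to 4.85), and 961 against 131 CPM in the HFD spots, 7.35 times as much (2.88, 2.80 to 2.96). Among single duct spots Spp1 ran from 0 over a median of 567 to 5625 CPM in the NCD section and from 0 over 524 to 7108 CPM in the HFD section. It was absent from 3 of 28 and 10 of 76 duct spots, and 20 NCD and 41 HFD duct spots lay above the 95th percentile of the comparison spots, so the groups overlapped. The 3 spots with most Spp1 held 36.8% of its NCD duct UMIs and 16.6% of those in the HFD section. The study's paper also reports Spp1 as characteristic of macrophages that it names NASH-associated. The part of macrophages in the Spp1 values was not tested. Spots off the tissue had 31.7 CPM of Spp1 on the NCD slide and 80.4 CPM on the HFD slide. The NCD comparison spots did not exceed the NCD value. The further duct markers had 882 CPM off the tissue on the NCD slide, above the 810 CPM of the comparison spots, and 1123 CPM on the HFD slide.

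**Figure D2:**
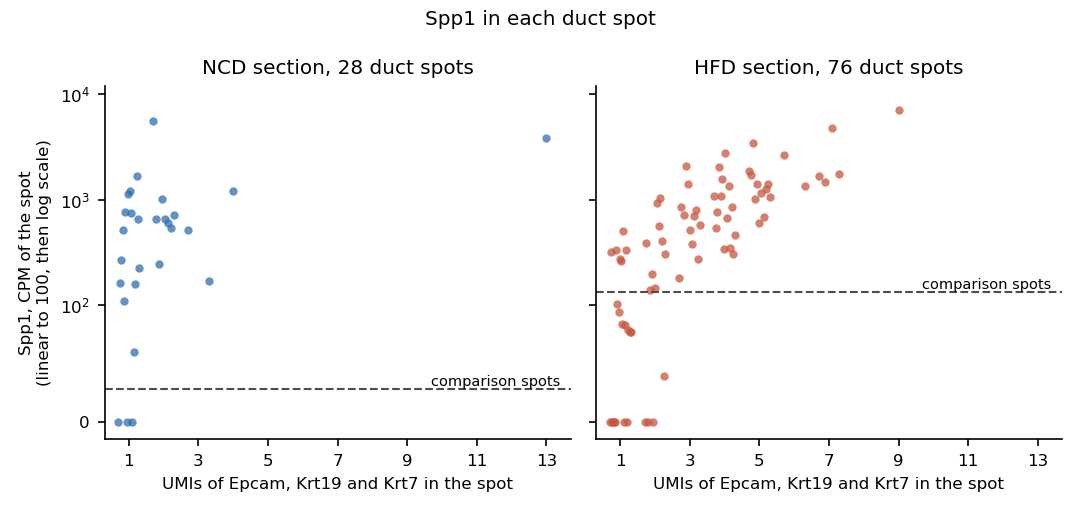
Spp1 in CPM of the spot (y axis, linear to 100 and logarithmic above) against the UMIs of Epcam, Krt19 and Krt7 in the spot (x axis), 1 point per duct spot spread sideways within a count, with the pooled CPM of the comparison spots (27.8 in the NCD and 131 in the HFD section) as a dashed line. HFD spots with 1 UMI lie on both sides of the line.

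Membrane proteins of the duct surface followed. Tspan8, a tetraspanin of epithelial membranes, had 12 UMIs in 10 NCD duct spots (28.9 against 0.618 CPM, log2 5.55) and 90 UMIs in 33 HFD duct spots (52.3 against 4.52 CPM, log2 3.53). Fxyd3 reached log2 5.11 (15 UMIs) and 3.98 (56 UMIs). Cd24a, a surface glycoprotein of progenitor cells, had log2 ratios of 3.03 and 3.49, and S100a6, a calcium-binding protein, 2.30 and 2.43. Alcam, an adhesion molecule, stood lower at 1.13 and 1.14. Muc1 (membrane mucin), Prom1 (prominin of apical membranes) and Anxa13 (annexin of epithelial membranes) were called in the HFD section with log2 ratios of 4.28, 3.58 and 3.73, and had 5, 9 and 6 duct UMIs in the NCD section, with NCD ratios of 4.58 (2.74 to 6.16), 6.32 (4.73 to 7.98) and 5.96 (4.06 to 7.86) but too few UMIs to be counted as measured. Wfdc2, a secreted protease inhibitor, had log2 2.14 (1.24 to 2.92) in the NCD section and 0.41 (0.18 to 0.63) in the HFD section, where the comparison spots themselves held 74.3 CPM against 7.65 CPM in the NCD comparison spots. In all, 7 of 12 genes of this group were called higher in the NCD and 10 of 12 in the HFD section.

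Keratins and cell junction genes had log2 ratios of 0.51 (0.33 to 0.69) and 0.53 (0.46 to 0.59) as a group, and differed by gene. Krt8 and Krt18, keratins that hepatocytes also make, had log2 ratios of -0.02 and 0.53 in the NCD and 0.40 and 0.65 in the HFD section, and neither was called. Cldn7 was 19.2 CPM in the duct spots of each section, against 0.579 CPM in the NCD and 1.24 CPM in the HFD comparison spots. Cdh1, the E-cadherin of epithelial junctions, had log2 2.59 (1.55 to 3.48) and 2.81 (2.40 to 3.21). Cldn4 was called in the HFD section, with 8 UMIs in 8 duct spots and log2 4.24 (2.80 to 5.57). The desmosome genes Dsp and Jup were between -0.49 and 0.30 in both sections. In this group 3 of 11 genes were called higher in each section.

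Genes of secretion, transport and cilia were sparse. Bicc1, an RNA-binding protein whose loss gives kidney and duct cysts, had log2 3.45 (2.04 to 4.62) in the NCD and 3.01 (2.53 to 3.47) in the HFD section. The cilium gene Pkd2 had 2.04 and 1.29, and Ano1, a calcium-activated chloride channel, 2.18 and 2.01. Slc5a1 (sodium-glucose cotransporter), Pkhd1 (fibrocystin of cilia) and Itpr3 (the calcium release channel of apical bile secretion) were called in the HFD section at 3.397, 2.53 and 2.10. Cftr, the chloride channel of bile secretion, had 1 UMI in the NCD and 4 in the HFD duct spots, the secretin receptor Sctr had 0 and 5, and the bile acid receptor Gpbar1 had 0 and 4. The water channel Aqp1 and the bile acid carrier Slc10a2 had HFD ratios of 0.10 and 0.12 and were not called. The group gave 4 of 15 genes called higher in the NCD and 6 of 15 in the HFD section.

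Transcription factors of duct cells were low, and 3 of 9 were called higher in both sections. Sox9 (chr11:112782224-112787760) had 10 UMIs in 9 NCD duct spots (24.1 against 1.93 CPM, log2 3.64, 2.49 to 4.64) and 20 UMIs in 16 HFD duct spots (11.6 against 3.78 CPM, log2 1.62, 0.88 to 2.28). Sox4, a related factor, reached 3.05 and 1.98, called in both. The epithelial factors Ehf and Elf3 were called in the HFD section (3.997 and 2.002) and had 1 and 0 UMIs in the NCD duct spots. Onecut2 lay at -0.22 and 0.00. Onecut1 had 0 UMIs in the NCD duct spots, against 4.32 CPM in the comparison spots, and 1.16 against 1.31 CPM in the HFD section. Of 9 genes 3 were called higher in the NCD and 5 in the HFD section.

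Among 13 Notch and Hippo pathway genes 3 were called higher in the NCD and 5 in the HFD section, 1 of them in both. That gene was Ccn2, a secreted target of Yap signalling, at log2 1.17 (0.28 to 1.93) and 1.63 (1.34 to 1.91). Jag1, the Notch ligand of the portal tract, had 2.90 (1.63 to 3.96) in the NCD and 0.86 (-0.37 to 1.88) in the HFD section, and the target gene Hes1 had 1.44 and 0.57. Notch3, Hey1, Tead1 and Ankrd1 were called in the HFD section at 2.58, 2.04, 1.04 and 2.44. Yap1 had 0.82 and 0.10 and was not called.

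Genes of the ductular reaction and injury had a higher sum in the HFD than in the NCD section, in duct and comparison spots alike, carried mostly by Lcn2 and Ly6d. The sum was 84.2 CPM in NCD and 593 CPM in HFD duct spots, and 36.8 and 442 CPM in comparison spots. Lcn2, a secreted iron-carrier binding protein of stressed epithelium, had 16.8 CPM in NCD and 242 CPM in HFD duct spots, and 7.65 and 162 CPM in comparison spots. Ly6d, a surface protein, had 21.7 and 177 CPM in duct spots and 6.41 and 162 CPM in comparison spots. Between the duct spots Mmp7 had a log2 ratio of HFD to NCD of 0.12 (-1.48 to 2.14) and Pdgfb -0.24. Within the HFD section the duct over comparison ratios were 0.58 for Lcn2 and 0.13 for Ly6d, neither called. Mmp7 (matrix protease of injured ducts) and Sprr1a were called higher in the HFD duct spots at log2 3.86 and 1.24. Of 14 genes 1 was called in the NCD section (Ly6d, 1.76) and 3 in the HFD section.

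Duct spots were not alike, and the HFD spots with a single marker UMI had duct gene levels close to those of the comparison spots. In these 20 spots, all with 13086 or fewer UMIs, the further duct markers had a log2 ratio of 0.01 (-0.16 to 0.17), Spp1 0.05 (-0.54 to 0.58) and pericentral hepatocyte genes 0.00 (-0.07 to 0.08), while smooth muscle genes had 0.79. The 13 HFD spots with 2 UMIs reached 0.63 and the 43 with 3 or more reached 1.31 (1.26 to 1.35) for the further markers, with Spp1 at 1.49 and 3.21. In the NCD section the 16 spots with 1 UMI already reached 1.295 (1.15 to 1.44) for the further markers and 4.24 for Spp1, and the 4 spots with 3 or more reached 1.82 and 5.17. Median depth moved with these classes, from 11294 UMIs at 1 marker UMI to 29318 at 3 or more in the HFD section and from 11659.5 to 26175.5 in the NCD section, and its part in the result was not tested. The top-ranked spots with Epcam alone had further marker ratios of 0.89 in the NCD and 0.58 in the HFD section. The 289 HFD spots with marker UMIs below the top 3% had 0.52 and Spp1 at 1.65, while the 11 NCD spots of this kind had 0.00 and -1.25.

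**Figure D3:**
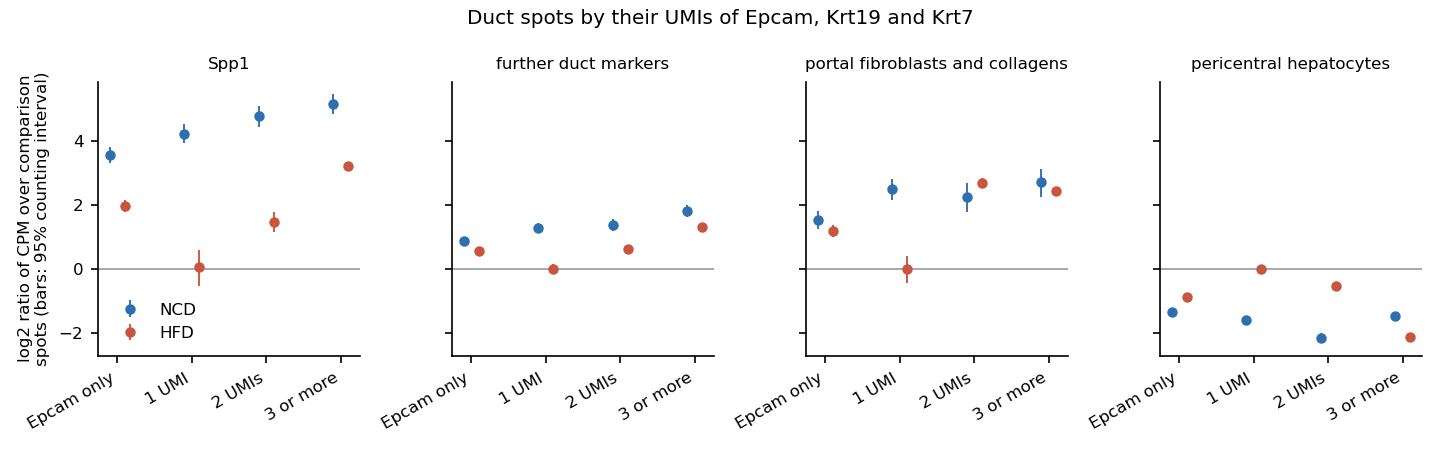
Log2 ratio of CPM over the comparison spots (y axis) for Spp1 and 3 gene lists, by the UMIs of Epcam, Krt19 and Krt7 that chose the spots (x axis), with 95% counting intervals as bars; spots with Epcam alone were in neither group. HFD spots with 1 UMI lie at 0 in all 4 panels, and NCD spots with 1 UMI do not.

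Across all genes 524 were called higher and 142 (1.19%) lower in the NCD duct spots, and 973 higher and 160 (1.18%) lower in the HFD duct spots. Against the 5 comparison spots nearest in depth to each duct spot 253 and 645 genes were called higher. With every spot drawn down to 3000 UMIs 286 and 382 were called higher and 93 and 88 lower. Both alternatives leave fewer UMIs to pass the call. Against the comparison spots with the lowest pericentral share 54 and 66 genes were called lower. Higher in both sections were 181 genes, 34.5% of the NCD and 18.6% of the HFD calls. Lower in both were 31, or 21.8% and 19.4%. The calls were opposite for 2 genes, Hba-a1, a haemoglobin gene, and Tinf2, a telomere protein gene with 9 NCD and 4 HFD duct UMIs that was chosen after its values were seen. After Fxyd3, Tspan8 and Cldn7, the genes with the highest mean ratio among those called higher in both sections were ccdc198 (5.20 and 3.26), Ddit4l (5.27 and 2.65), Tesc (5.05 and 2.75) and Rab27b (4.28 and 3.49), a GTPase of secretory vesicles. Pdzk1ip1 had 21 UMIs in 13 NCD duct spots and 63 in 30 HFD duct spots, with log2 ratios of 3.68 and 3.67. Tead2, a DNA-binding partner of Yap in the Hippo pathway, had 4.04 (2.26 to 5.50) on 5 UMIs and 2.62 (1.41 to 3.65) on 9 UMIs. Spint1, a protease inhibitor of epithelia, led the HFD list with Muc1 at 4.21 (23 UMIs) and had 1 UMI in the NCD duct spots.

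Genes of the tissue around ducts were also higher in the duct spots. Portal fibroblast and collagen genes reached 416 against 74.1 CPM in the NCD section (log2 2.49, 2.26 to 2.72) and 1212 against 240 CPM in the HFD section (2.34, 2.27 to 2.40), with 7 of 11 and 11 of 12 measured genes called higher. Gsn, an actin-severing protein, had 2.90 and 2.94, Dpt (dermatopontin of the matrix) 2.62 and 2.65, and Col1a1 3.004 and 2.01. Mgp, the matrix Gla protein that limits calcification, had 52 UMIs in 19 NCD and 300 UMIs in 49 HFD duct spots, at log2 3.11 and 3.14. Smooth muscle genes had 1.97 (1.63 to 2.29) and 1.52 (1.38 to 1.65), Myh11 3.14 and 1.51. Genes of portal vein and artery endothelium gave 5 of 9 called higher in the NCD and 4 of 9 in the HFD section. The venous marker Vwf had 1.75 and 1.13, the arterial connexin Gja5 3.21 and 3.06 on 4 UMIs each, and the arterial genes Gja4 and Dll4 1.40 and 2.15 in the NCD but -0.17 and -0.22 in the HFD section. Ccl21a, a chemokine of lymphatic vessels whose near-identical gene copies can share reads, had 28 UMIs in 7 NCD and 150 in 23 HFD duct spots (2.33 and 3.17), and 3 spots held 78.6% of the NCD UMIs. Of 4 measured lymphatic genes 1 and 2 were called higher, while Prox1, the lymphatic master regulator that hepatocytes also express, had 0.16 and -0.35. Mesothelial genes, a list checked because the liver surface also expresses Krt19 and Krt7, had log2 ratios of 2.998 (1.297 to 4.34) on 5 UMIs in the NCD and 1.90 (0.64 to 2.95) on 8 UMIs in the HFD duct spots. Gpm6a, a membrane glycoprotein that nerve cells also make and the 1 measured gene of the list, was called higher in both sections (3 and 8 UMIs). Msln and Wt1 had 1 UMI each in the NCD and 0 in the HFD duct spots, with 0 and 0.154 CPM in the NCD comparison spots. Upk3b, Upk1b, Lrrn4, Bnc1 and Muc16 were at 0 in the duct spots of both sections. The part of the liver surface in the choice of spots was not tested.

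Duct spots overlapped in part with the spots richest in fibroblast and smooth muscle genes, and less with those richest in periportal hepatocyte genes. Of the 28 NCD duct spots 8 were also among the top 3% of the section by fibroblast genes, which is 28.6% of the duct spots and 12.7% of the 63 fibroblast-rich spots. Of the 76 HFD duct spots 26 were, or 34.2% of the duct spots and 24.5% of the 106 fibroblast-rich spots. The top 3% of smooth muscle genes held 5 NCD duct spots (17.9% of the duct spots and 7.94% of the 63) and 12 HFD duct spots (15.8% and 11.3% of the 106). The top 3% of periportal hepatocyte genes held 0 NCD duct spots and 3 HFD duct spots (3.95% of the duct spots and 2.83% of the 106). Among all spots with at least 3000 UMIs the top 3% made up 2.99% in the NCD and 2.996% in the HFD section. The fibroblast-rich spots without marker UMIs (49 NCD and 63 HFD) had further duct marker ratios of 0.88 (0.76 to 0.99) and 0.62 (0.56 to 0.68). Their Spp1 ratios were 2.78 and 1.12. The duct spots had further duct marker ratios of 1.46 and 1.11 and Spp1 ratios of 4.66 and 2.88. The periportal-rich spots without marker UMIs (63 and 94) had further duct marker ratios of 0.32 and 0.01. These sets were chosen to hold 0 marker UMIs, and the duct spots to hold some. Lower duct gene values than in the duct spots therefore follow in part from the choice.

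Hepatocytes differ between the portal and the central end of the lobule, and genes of the central end were lower in duct spots. Pericentral hepatocyte genes were lower, 3541 against 11592 CPM in the NCD section (log2 -1.71) and 2660 against 6879 CPM in the HFD section (-1.37), with 8 and 7 of 10 genes called lower. Glul, the glutamine synthetase of the cells around the central vein, had -2.01 and -1.37, Oat -2.02 and -1.55 and Cyp2e1 -1.63 and -1.35. Periportal genes summed to 0.19 (0.15 to 0.23) in the NCD and -0.08 (-0.10 to -0.05) in the HFD section. Of 10 genes 2 were called higher in the NCD section, Sds (serine dehydratase, 1.10) and Etnppl (1.07), and 0 in the HFD section, and general hepatocyte genes had 0.11 and 0.04. Against the third of the comparison spots with the lowest pericentral share, an alternative chosen after seeing the data, the further duct markers had 1.28 in the NCD and 0.92 in the HFD section, and the pericentral genes, which set this comparison, had 0.04 in the HFD section. Sinusoidal endothelium genes had -0.55 and -0.50 as a sum. Of these 10 genes 2 were called lower and 1 higher in the NCD section, and 0 either way in the HFD section. Genes such as L3hypdh, Cnih4 and Timm22 led the lowest NCD ratios on 1 duct UMI each, and Lhpp, a phosphatase of hepatocytes, was called lower in both sections with 7 and 30 duct UMIs (-2.51 and -1.69).

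**Figure D4:**
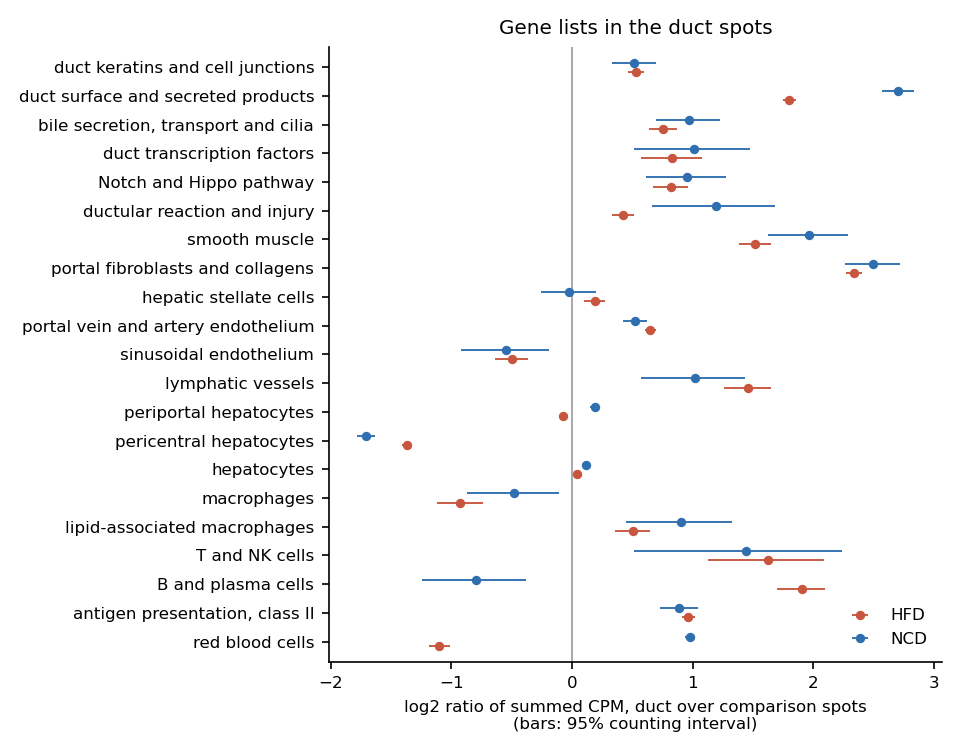
Log2 ratio of the summed CPM of each gene list in duct over comparison spots (x axis) in the NCD and HFD sections, with 95% counting intervals as bars. Duct, fibroblast and smooth muscle lists lie right of 0 and pericentral hepatocytes left of it in both sections, and the red blood cell and B and plasma cell lists lie on opposite sides.

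Immune genes differed by cell type. Class II antigen presentation genes had 0.89 (0.73 to 1.04) in the NCD and 0.96 (0.91 to 1.02) in the HFD section, with Cd74, the invariant chain, at 0.91 and 0.94. T and NK cell genes had 1.44 on 13 UMIs and 1.62 on 41 UMIs, with 1 and 3 of 5 measured genes called higher. Klrd1 (NK cell receptor chain) was called in both at 2.89 and 2.59 on 5 and 10 UMIs, while the NK cell gene Ncr1 was at 0 in the duct spots of both sections and Klrk1 had 0 and 2 UMIs. Macrophage genes summed to log2 ratios of -0.48 (-0.88 to -0.11) and -0.93 (-1.12 to -0.74), with 0 of 7 genes called lower in the NCD and 3 of 7 in the HFD section. Those were the Kupffer cell genes Clec4f, Cd5l and Vsig4 at -1.31, -1.52 and -1.09, while Vsig4 had 0.17 in the NCD section and Cd68, a gene of all macrophages, 0.44 in the HFD section. B and plasma cell genes had -0.79 in the NCD and 1.90 in the HFD section. In the HFD duct spots Igkc, the kappa light chain, had 149 UMIs in 16 spots (86.6 against 15.03 CPM), Igha, the heavy chain of immunoglobulin A, had 47 UMIs in 9 spots, and 3 spots held 66.4% of the list's 226 UMIs. In the NCD duct spots 1 spot held 26 of the list's 47 UMIs. Red blood cell genes had 0.98 in the NCD and -1.10 in the HFD section, and 3 NCD duct spots held 61.3% of the 5376 NCD duct UMIs. Haemoglobin and immunoglobulin genes have close copies that can share reads.

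Duct genes differed in how the HFD and NCD sections compared, and 1 section per diet allows no test of these differences. The further duct markers had 2221 CPM in the NCD and 3309 CPM in the HFD duct spots, a log2 HFD to NCD ratio of 0.58 (0.48 to 0.68), and 810 against 1530 CPM in the comparison spots, a ratio of 0.92 (0.90 to 0.94). Over all genes with at least 20 UMIs the median of this ratio was 0.24 in duct spots and 0.26 in comparison spots. For Spp1 the ratio of HFD to NCD was 0.46 (0.28 to 0.64) in duct spots and 2.23 (2.12 to 2.35) in comparison spots. Tspan8 had 0.86 (-0.02 to 1.86) and 2.87 (2.15 to 3.70), and Fxyd3 -0.15 (-0.99 to 0.78) and 0.98 (0.38 to 1.64). Cd24a had 0.19 and -0.27, with intervals that held 0 in both. Keratin and junction genes as a group had 0.85 (0.66 to 1.05) in duct and 0.84 (0.81 to 0.87) in comparison spots, Krt8 had 1.86 (1.47 to 2.27) and 1.43 (1.38 to 1.48), and S100a6 0.66 and 0.54. Collagen genes were higher in the HFD section in both kinds of spot, Col3a1 by 2.60 in duct and 2.62 in comparison spots and Col1a1 by 1.31 and 2.31. Lipid-associated macrophage genes had HFD to NCD ratios of 1.04 (0.60 to 1.51) in duct and 1.44 (1.36 to 1.52) in comparison spots. Whether such cells share in the Spp1 values was not tested. Drawn down to 3000 UMIs per spot, the ratio of the further duct markers between the duct spots was 0.24, and with each spot weighted equally it was 0.27.

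**Figure D5:**
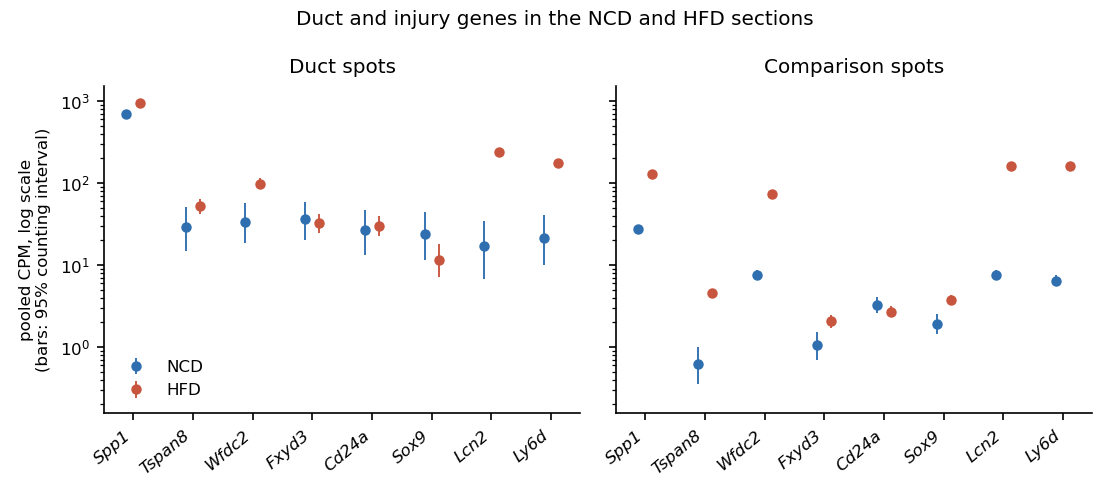
Pooled CPM (y axis, log scale) of 6 duct genes and the injury genes Lcn2 and Ly6d in the duct spots (left) and comparison spots (right) of the NCD and HFD sections, with 95% counting intervals as bars, for genes chosen after their values were seen. Spp1 is 700 and 961 CPM in duct spots and 27.8 and 131 CPM in comparison spots.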

How the data were processed

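Frozen liver sections of 1 NCD and 1 HFD mouse were measured by 10x Visium. The deposited filtered matrices hold UMI counts per gene and spot over tissue, made by the authors with Space Ranger (version 1.3.1 in the study's methods) on mm10 per the labels' processing notes; the annotation version is not given in the sources used here. The counts were used as deposited, with no normalization between sections. Reads of near-identical genes and of overlapping genes may be split or dropped in such counts.

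Spots with at least 3000 UMIs were kept. UMIs were summed over the spots of a group and divided by the group's total to give CPM, with exact Poisson intervals, and log2 ratios had exact conditional binomial intervals, both at 95%. A gene was called with at least 20 UMIs, a difference of at least 2 times and an interval clear of 1. With 1 section per diet no test was possible. Groups followed the diet in the labels. The members and the 25 gene lists (214 genes) were chosen with earlier results of these data known. Genes named in the text, other than Tinf2, were members of these lists, in each section the 15 highest and 10 lowest ratios of genes that had 50 or more UMIs and the same direction at 3000 UMIs per spot, the 15 highest mean ratios among genes called higher in both sections, and the 5 highest and 5 lowest differences between sections. Values of 2 list genes are not reported here. No doublet caller was run, since spots pool cells. The raw matrices served only for spots off the tissue. Promoters came from a RefSeq table of GRCm38.p6 and gene positions from GENCODE M21.

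Alternatives changed the depth minimum, the share of spots taken, the marker requirement, the comparison spots, the depth per spot and the averaging. The calling was tested on simulated data that held counting error alone, with no spread between spots. In each section 200 genes with at least 20 expected duct UMIs were changed by a factor of 4 or 0.25. All 200 were called the right way, and 1.47% (NCD) and 1.14% (HFD) of unchanged genes were called. Changes near 2 times, changed genes with fewer duct UMIs and UMIs gathered in few spots were not tried, so these shares are not error rates of the calls above. Computation used scipy 1.17.1 and numpy 2.4.6 in Python 3.11.15, with pandas 2.3.3 for tables and matplotlib 3.10.9 for plots.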

Additional observations from a re-analysis of the deposited data

Results flagged for a closer look

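For 3 gene lists the duct spots of the sections lay on opposite sides of their comparison spots, and with 1 section per diet the difference was not tested. Periportal hepatocyte genes had a log2 ratio of duct to comparison spots of 0.19 in the NCD and -0.076 in the HFD section. B and plasma cell genes had -0.79 and 1.90, with 66.4% of the HFD duct UMIs in 3 spots. Red blood cell genes had 0.98 and -1.10, with 61.3% of the NCD duct UMIs in 3 spots.

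The marker genes were also found outside the tissue. Spots off the tissue held 23 UMIs of Epcam, Krt19 and Krt7 on the NCD slide (3.35 CPM, against 3.86 CPM over tissue) and 8 on the HFD slide (3.67 CPM, against 8.87 CPM over tissue). A duct spot with 1 UMI of these genes therefore rests on a count that spots off the tissue also held. The 1300 spots off the tissue on the NCD slide held 6870975 UMIs in all, and the 1398 on the HFD slide held 2177155. These values are therefore not like baselines for the 2 slides. The source of the UMIs off the tissue, and their part in the choice of spots, was not tested.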

How the results depend on the processing

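The further duct markers were higher in duct than in comparison spots under every alternative run, but the size of the log2 ratio depended on which spots were taken. In the NCD section (1.46) it was 2.03 for the top 1%, 1.25 for the top 5%, 1.25 with a minimum of 1000 UMIs, 1.17 with no Krt19 or Krt7 requirement, 1.59 with at least 2 marker UMIs, 1.76 with spots drawn down to 3000 UMIs, 1.69 as a mean of CPM per spot and 1.27 without the 10% of duct spots with most marker UMIs. In the HFD section (1.11) it was 1.62 for the top 1%, 0.97 for the top 5%, 1.01 with no Krt19 or Krt7 requirement, 1.21 with at least 2 marker UMIs, 1.03 against all other spots and 0.94 without the 10%. Alternatives chosen after seeing the data gave 1.28 and 0.92 against the comparison spots with the lowest pericentral share, 0.96 and 0.75 without Spp1, and 1.33 in the NCD section without the 1 duct spot with most marker UMIs. Genes called higher (524 and 973) numbered 253 and 645 against the spots nearest in depth and 286 and 382 with spots drawn down. Both alternatives leave fewer UMIs to pass the call. Genes called lower (142 and 160) numbered 93 and 88 with spots drawn down and 54 and 66 against the low-pericentral spots. The ratio of HFD to NCD duct spots (0.58) was 0.76 with a minimum of 1000 UMIs, 0.76 with no Krt19 or Krt7 requirement, 0.24 drawn down and 0.27 as a mean per spot; the cause was not tested.

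Directions turned in 10 cases. Against the low-pericentral spots, periportal genes had -0.15 (NCD), pericentral genes 0.044 (HFD), hepatocyte genes -0.10 (NCD) and -0.075 (HFD), and B and plasma cell genes 0.19 (NCD). With the top 1%, hepatocyte genes had -0.073 (NCD) and -0.055 (HFD) and B and plasma cell genes 0.64 (NCD). Drawn down, hepatocyte genes had -0.0078 (HFD) and neutrophil genes 0.012 (NCD). The cause was not tested. Of the remaining values 71 main and 443 other ones moved by less than their counting interval, or by less than 1.5 times for counts, and 163 other ones moved by more. No paired analysis was possible because each diet has 1 section. Depth limited the NCD section, where many duct genes had fewer than 20 UMIs.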

Other observations

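Among lists not described above, hepatic stellate cell genes had log2 ratios of duct to comparison spots of -0.02 (-0.26 to 0.20) in the NCD and 0.19 (0.10 to 0.27) in the HFD section. Of these 8 genes 0 were called higher and 1 was called lower in each section. The lower gene was Reln in the NCD section, at 0.41 times the comparison CPM, against 1.12 times in the HFD section. In the HFD section it was Lrat, at 0.24 times, against 0.55 times in the NCD section. Dcn alone supplied 78 of the 164 NCD and 656 of the 1124 HFD duct UMIs of the stellate list. Its CPM was 1.16 and 1.27 times that of the comparison spots. Lipid-associated macrophage genes had 0.90 (0.44 to 1.32) and 0.50 (0.35 to 0.65). Monocyte and dendritic cell genes had 1.01 (-0.89 to 2.40) on 4 UMIs and 1.20 (0.74 to 1.64) on 46 UMIs, and neutrophil genes had 1 and 12 duct UMIs. Lymphatic vessel genes had 1.02 (0.57 to 1.43) and 1.45 (1.26 to 1.65). Ccl21a alone supplied 28 of the 48 NCD and 150 of the 239 HFD duct UMIs of the lymphatic list. Genes of portal vein and artery endothelium had 0.52 (0.42 to 0.62) and 0.65 (0.61 to 0.69). Of the duct UMIs of this endothelium list, Clu alone supplied 753 of 835 in the NCD and 4415 of 4646 in the HFD section. Clu also had 1346 CPM in the NCD and 1640 CPM in the HFD comparison spots, so the list ratio mostly describes this gene.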
